A study of Mus musculus with 6 samples.

Results

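The ligands of the tumor necrosis factor (TNF) superfamily were examined through 9 genes of a deposited table of 23420: Tnf, Lta, Ltb, Tnfsf9, Tnfsf13, Tnfsf13b, Tnfsf14, Tnfsf15 and Fasl. They were taken by gene symbol, and all 9 were in the table. The cells were eosinophils of wild-type (WT) mice, grown from bone marrow in stem cell factor plus FLT3 ligand, matured in IL-5 at 20 ng/mL, and taken on day 14 and cleared of dead cells. In 3 libraries they had received IL-33, an alarmin released by damaged barrier tissue, at 2.5 ng/mL for 3 hours, and in the other 3 phosphate-buffered saline (PBS). The labels do not state that replicates were separate mice or cultures. The p-values therefore set the difference between the groups against the spread of these libraries, and that spread may be technical.

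Most ligands of the family are made as membrane proteins that assemble into trimers, and several are cut from the cell surface to act at a distance. Their receptors recruit TRAF adaptors or death domain proteins and so switch on NF-kB, MAP kinases or cell death. Eosinophils are granulocytes of type 2 immunity that can store and release cytokines, TNF among them.

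Sequences next to the genes are shown first, since 3 of the 9 ligands (Tnf, Ltb and Tnfsf14) were expressed well enough to test and Lta, the neighbour of Tnf, was barely detected. They are the bases before each gene start, on the strand of the gene, from RefSeq (GRCm38.p6). Capitals mark matches on either strand to a loose form of the NF-kB site (GGG, any 5 bases, CC), to TGANTCA, a form of the AP-1 site, and to TATAAA. Matches that overlap are counted separately and run together in capitals.
Tnf, chr17:35202008-35202257, minus strand: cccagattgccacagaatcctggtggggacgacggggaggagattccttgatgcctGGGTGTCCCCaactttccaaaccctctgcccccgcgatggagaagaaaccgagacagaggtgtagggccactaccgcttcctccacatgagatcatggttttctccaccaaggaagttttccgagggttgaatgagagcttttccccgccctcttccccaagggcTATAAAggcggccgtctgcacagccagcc
Ltb, chr17:35194257-35194438, plus strand: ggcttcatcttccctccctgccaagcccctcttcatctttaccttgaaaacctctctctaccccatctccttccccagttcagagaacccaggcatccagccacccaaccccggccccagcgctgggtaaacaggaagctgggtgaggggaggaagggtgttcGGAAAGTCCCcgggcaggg
Tnfsf14, chr17:57194182-57194431, minus strand: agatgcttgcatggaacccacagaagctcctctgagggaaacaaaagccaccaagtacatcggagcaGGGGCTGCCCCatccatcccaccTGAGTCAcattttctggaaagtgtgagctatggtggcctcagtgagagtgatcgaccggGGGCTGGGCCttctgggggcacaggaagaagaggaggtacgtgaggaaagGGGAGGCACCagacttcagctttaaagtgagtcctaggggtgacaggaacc
Lta, chr17:35205352-35205601, minus strand: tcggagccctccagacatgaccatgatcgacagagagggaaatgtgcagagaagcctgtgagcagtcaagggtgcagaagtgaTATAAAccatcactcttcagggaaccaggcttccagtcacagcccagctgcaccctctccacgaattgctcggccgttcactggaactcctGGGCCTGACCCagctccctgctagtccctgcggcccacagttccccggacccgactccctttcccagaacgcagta

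In the 250 bases before its RefSeq start, Tnf held 1 match to the NF-kB form and a TATAAA that began 29 bases before the start. Ltb held 4 matches to the NF-kB form and none to the others; 1 of them lies in the 182 bases shown, and the rest lie past the gene start of the GENCODE annotation. Tnfsf14 held 4 matches to the NF-kB form and 1 to the AP-1 form. Lta held 2 matches to the NF-kB form and a TATAAA that began 167 bases before the start. Among 32851 windows of 250 bases before RefSeq gene starts, 45.8% held the NF-kB form, 6.75% the AP-1 form and 12.4% TATAAA. The matches describe letters in these windows only. Promoters were found for 8 of the 9 ligands, all but Tnfsf9. Of the other ligands not tested, Tnfsf13 held 2 matches to the NF-kB form and 1 to the AP-1 form, and Fasl held 1 to the NF-kB form. Tnfsf13b held 1 match to the AP-1 form in 1 of its windows, and Tnfsf15 held no match.

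Tnf mRNA is known for an AU-rich element that binds proteins which shorten its life. In the longest annotated 3' untranslated region of each ligand, the nonamer TTATTTATT was counted 5 times in Tnf, 1 time each in Lta and Tnfsf13b, and not in the other 6, Ltb and Tnfsf14 included. The 30 bases of Tnf with the most nonamers, which overlap each other and start 438 bases after the stop codon, are shown with the nonamers in capitals.
Tnf, chr17:35199678-35199707, minus strand (GRCm38): TTATTTATTATTTATTTATTATTTATTtat

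The nonamer was found in 8.25% of 9567 genes tested that had an annotated 3' untranslated region. The median log2 fold change was −0.05 in the genes with it and −0.04 in those without it.

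Values below are given for replicates 1, 2 and 3 in that order and are normalized counts, gene counts that the authors divided by 1 factor for each library. Whole reads recovered from them summed to between 8218303 and 10785521 in a library, of which Rn45s, the ribosomal RNA precursor gene, took 13.7% to 24.8% in PBS, 24.3% in IL-33 replicate 1, 59.6% in replicate 2 and 54.8% in replicate 3. IL-33 replicate 1 stood apart, with a Pearson r across genes of 0.952 and 0.922 against the other IL-33 libraries, which had 0.969 between them. Of 8 eosinophil markers, limma called 7 lower after IL-33, beside 14.4% of all genes tested. The 8 markers summed to 39118 to 51563 in PBS and 13238 to 24751 after IL-33. Ear2, 1 of the 7, passed the filter on low values (given below) only through its PBS libraries. It had 3.60, 0 and 0 normalized counts after IL-33 and 10.9, 13.8 and 21.0 in PBS. Of the T and NK cell markers, Ncr1 had no read, and Cd3e, Cd3g, Cd4, Klrb1c and Prf1 had at most 3 reads in any library. Cd3d was detected in every library (11.2 to 24.3 normalized counts), as were Nkg7 (3.39 to 21.5) and Cd247 (4.19 to 10.8), and Lck reached 16.9 in IL-33 replicate 3; Cd3d and Nkg7 were tested and not called. The 11 T and NK cell markers in the table summed to 34.2 to 49.5 in PBS and 40.7 to 56.9 after IL-33, and the 5 B cell markers to 48.7 to 67.8 and 32.2 to 52.1. The 8 markers listed for macrophages, monocytes and dendritic cells summed to 9216 to 11752 in PBS and 25009 to 31686 after IL-33. Of these, 6 were tested and limma called 3 higher, beside 17.4% of all genes tested. The 3 called were Emr1, the gene of F4/80 and most of the sum (1.48 on the log2 scale, adjusted p = 0.00154), Csf1r (1.40, adjusted p = 9.49e-04) and Itgax (0.74, adjusted p = 0.0324). Emr1 had 8913, 6636 and 8067 normalized counts in PBS. That was above the eosinophil marker Epx (4038, 4408 and 3550) and below the eosinophil marker Prg2 (30118, 41054 and 28512.5). The sum thus follows mostly 1 gene, and which cells carried Emr1 was not tested. Cd68, Mrc1 and Ly6c2 were not called (−0.04, −0.56 and −0.84), and Flt3 and Zbtb46 were below the filter. Mast cell and basophil markers summed to 94.7 to 208 in PBS and 67.4 to 96.6 after IL-33, and neutrophil markers to 1264 to 1504 and 468 to 1163. In each of these 2 lists limma called 2 of 5 tested markers lower, beside 14.4% of all genes tested. The mast cell and basophil markers called, Cpa3 and Ms4a2, passed the filter only through their PBS libraries. The part of other cells in the ligand results was not tested, and in bulk RNA fewer cells of a type and less RNA per cell cannot be told apart.

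After IL-33, 3 ligand transcripts were higher: Ltb by 4.82-fold, Tnf by 4.56-fold and Tnfsf14 by 1.69-fold. They were the ligands that passed the filter on low values, a normalized count of at least 10 in at least 3 libraries, and none was lower. The remaining 6 had 68 reads among them over all libraries. Differences were tested with limma on log2(normalized count + 1), a scale that understates the change of low genes, and p-values were adjusted by Benjamini-Hochberg over all 10544 genes that passed the filter. At an adjusted p under 0.05, 17.4% of all genes tested were called higher and 31.9% were called in either direction. The median log2 fold change was 2.19 over the 3 ligands and −0.03 over all genes tested. On recovered reads, edgeR and DESeq2 also called the 3 ligands higher, beside 18.1% and 21.2% of all genes tested. Ltb and Tnf were called after quantile normalization (15.5% of genes higher) and with equal totals without Rn45s (8.83%), and Ltb alone with equal totals (2.36%).

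**Figure D1:**
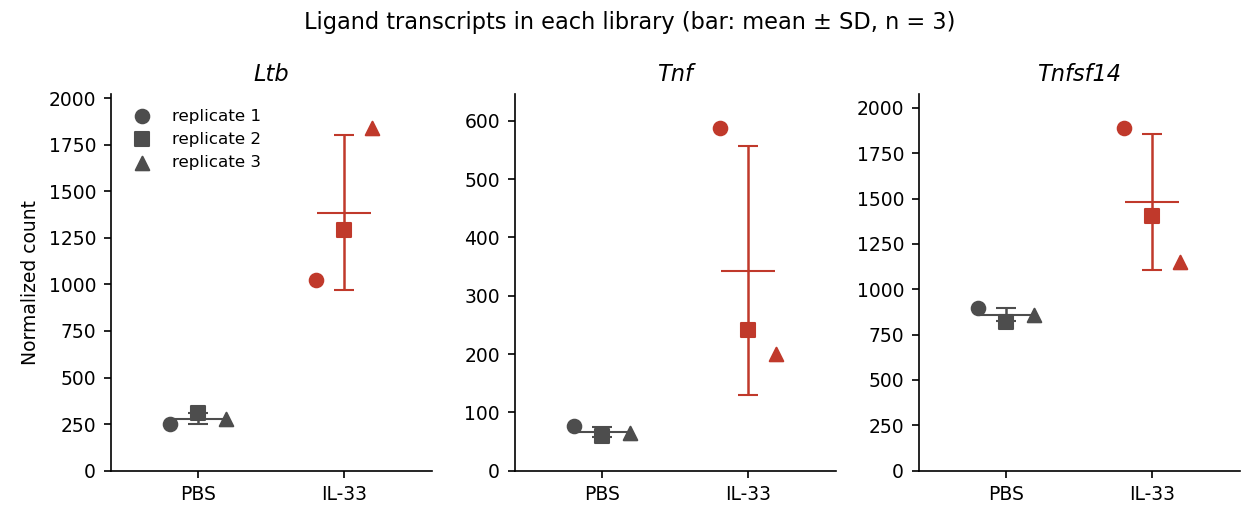
Normalized counts of the ligands that passed the filter (y axes) in each PBS and IL-33 library, with the group mean and SD. All IL-33 libraries lie above all PBS libraries for Ltb, Tnf and Tnfsf14, and IL-33 replicate 1 is the highest for Tnf (588) and Tnfsf14 (1889.9) and the lowest of its group for Ltb (1023).

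Ltb encodes lymphotoxin beta, a membrane protein that joins lymphotoxin alpha in a trimer and acts on the lymphotoxin beta receptor. It had 1023, 1292 and 1841 normalized counts after IL-33 and 251, 311 and 277 in PBS. Every IL-33 library was above every PBS library, as in 25.5% of all genes tested. The means were 1385 ± 417 (SD, n = 3) after IL-33 and 279 ± 30.0 (SD, n = 3) in PBS, a log2 fold change of 2.27 (limma, SE 0.23, adjusted p = 6.03e-04). Ltb was called in each alternative that left more than 1 library in each group. Its log2 fold change there ran from 1.23 with libraries scaled to equal totals to 2.47 without IL-33 replicate 1.

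Tnf encodes the inflammatory cytokine that gave the family its name. It had 588, 241 and 199.99 normalized counts after IL-33 and 76.1, 58.9 and 64.3 in PBS. The groups did not overlap, and IL-33 replicate 1 was far above the other IL-33 libraries. The means were 343 ± 213 (SD, n = 3) and 66.4 ± 8.79 (SD, n = 3), a log2 fold change of 2.19 (limma, SE 0.38, adjusted p = 0.00539). Without IL-33 replicate 1 the log2 fold change was 1.72, and Tnf was called (adjusted p = 4.77e-05, limma), as were 2910 of 10386 genes higher. In that library alone, Tnf was 3.13 above the PBS mean on the log2 scale. With equal totals, Rn45s included, Tnf was not called (1.16, adjusted p = 0.114, limma), and with Rn45s left out of the totals it was (1.77, adjusted p = 0.0119, limma).

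Tnfsf14 encodes LIGHT, a ligand of the lymphotoxin beta receptor and of HVEM. It had 1889.9, 1403 and 1152 normalized counts after IL-33 and 894, 821 and 860.3 in PBS. Here too all IL-33 libraries were above all PBS libraries. The means were 1482 ± 375 (SD, n = 3) and 859 ± 36.2 (SD, n = 3), a log2 fold change of 0.76 (limma, SE 0.20, adjusted p = 0.0252). The call was lost without IL-33 replicate 2 (0.78, adjusted p = 0.0758) and without PBS replicate 1 (0.79, adjusted p = 0.0715), replicate 2 (0.73, adjusted p = 0.103) or replicate 3 (0.76, adjusted p = 0.1), each by limma. Calls fell over all genes there too. In the same order, 874 of 10363, 1108 of 10294, 782 of 10292 and 695 of 10313 genes were called higher, beside 1837 of 10544 with all libraries. It was also lost by limma after quantile normalization (0.42, adjusted p = 0.146) and with equal totals without Rn45s (0.33, adjusted p = 0.251), and with Rn45s in the totals the sign turned (−0.28, adjusted p = 0.565). These last 2 scalings put the median gene at −0.46 and −1.08.

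**Figure D2:**
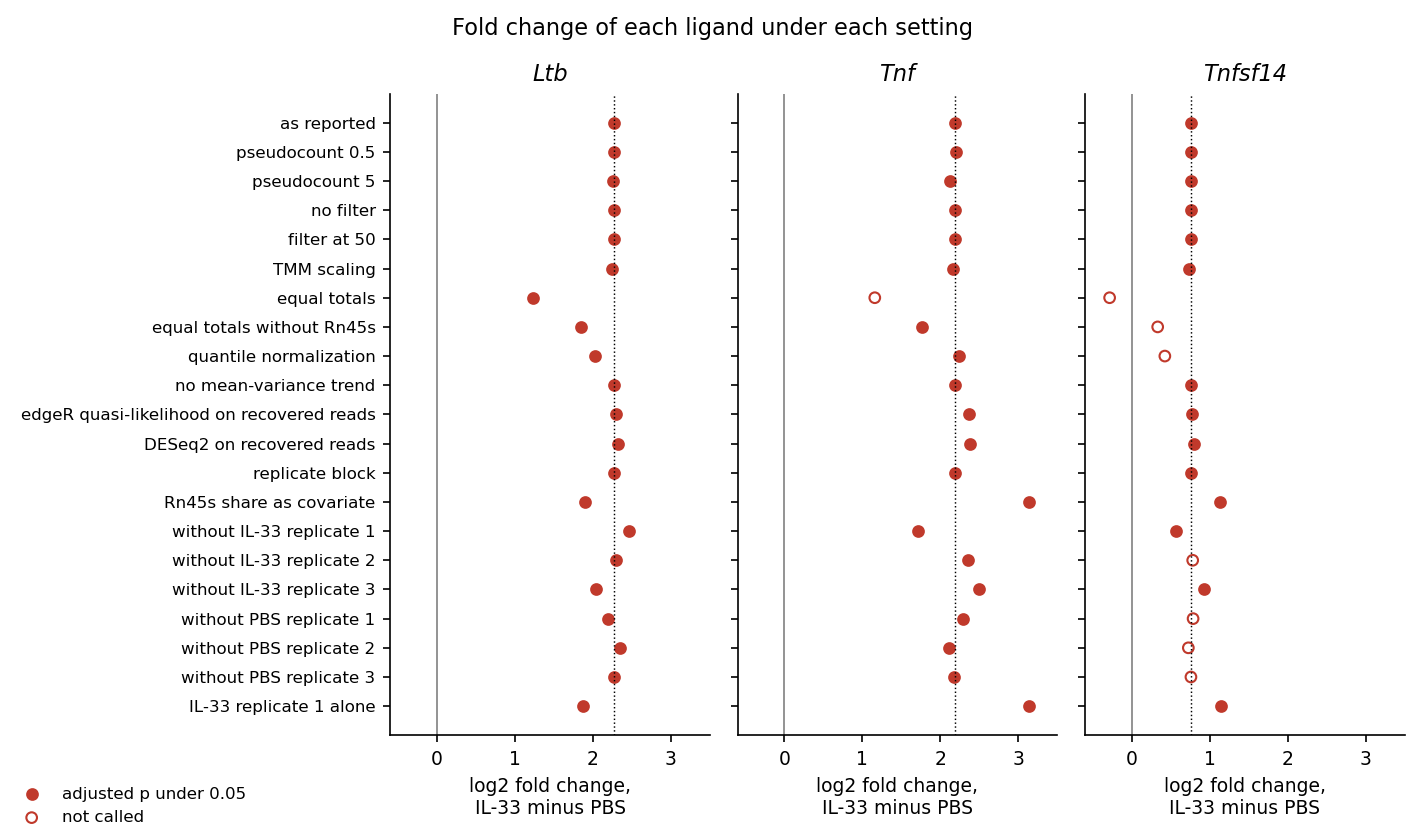
Log2 fold change (x axes, IL-33 minus PBS) of Ltb, Tnf and Tnfsf14 under each way of processing the data (y axis), with filled points for an adjusted p under 0.05 and open points otherwise. IL-33 replicate 1 alone takes its spread from the PBS libraries only, so its filled points support no call. Ltb is filled in every row, Tnf is open with equal totals (1.16), and Tnfsf14 is open in several rows and below 0 with equal totals (−0.28).

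The 3 ligands did not rank the IL-33 libraries alike. Relative to the PBS mean on the log2 scale, Tnf was 8.78-fold, 3.61-fold and 3.00-fold higher in the IL-33 libraries. Tnfsf14 was 2.20-fold, 1.63-fold and 1.34-fold higher, and Ltb 3.67-fold, 4.63-fold and 6.59-fold higher. Tnf and Tnfsf14 were thus highest, and Ltb lowest, in the IL-33 library whose Rn45s share (24.3%) lay in the PBS range. With the Rn45s share as a covariate the log2 fold changes were 3.14 for Tnf, 1.90 for Ltb and 1.13 for Tnfsf14, and limma called each (adjusted p = 7.62e-04, 0.00309 and 0.0106). That fit rests mainly on IL-33 replicate 1, the only IL-33 library with a share in the PBS range. In that library alone, Tnf, Ltb and Tnfsf14 were 3.13, 1.87 and 1.14 above the PBS mean on the log2 scale. The calls with the covariate are thus no separate support.

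Ratios of ligands within a library, from levels per kilobase of exon, depend on no scaling between libraries. The ratio of Tnf to Tnfsf14 was 0.351, 0.194 and 0.196 after IL-33 and 0.0959, 0.0808 and 0.0842 in PBS. The ratio of Ltb to Tnfsf14 was 0.660, 1.12 and 1.95 after IL-33 and 0.342, 0.461 and 0.392 in PBS. Both ratios were higher in all IL-33 libraries than in any PBS library, by 2.73-fold and 2.86-fold. The exact two-sided permutation p was 0.1 for each, the smallest that 3 against 3 libraries can give, and 0.15 after Benjamini-Hochberg adjustment over the 3 ratios computed. The ratio of Tnf to Ltb overlapped, at 0.532, 0.173 and 0.101 after IL-33 and 0.281, 0.175 and 0.215 in PBS (exact two-sided permutation p = 0.9).

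In level per kilobase of exon, PBS cells held most Tnfsf14, at 465 ± 19.6 normalized counts per kilobase (SD, n = 3), then Ltb at 184 ± 19.8 and Tnf at 40.5 ± 5.36 (SD, n = 3). No library of one overlapped with those of the next. After IL-33, Ltb was at 914 ± 275, Tnfsf14 at 802 ± 203 and Tnf at 209 ± 130.0 normalized counts per kilobase (SD, n = 3). Ltb (675 to 1214) and Tnfsf14 (624 to 1023) overlapped there, and Tnf (122 to 359) was below both. Among 9906 genes tested with an annotated length, the level of Tnf was above 54.6% of genes in PBS and above 86.0% after IL-33. Ltb went from 87.9% to 97.3%, and Tnfsf14 was at 96.3% and 96.8%.

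The other 6 ligands were near the limit of detection. A count of 0 allows up to 3 reads, which were worth 2.10 to 5.08 normalized counts depending on the library, and the highest value of any of the 6 in any library was 8.47. Intervals and limits from reads, here and for receptors, cover counting error only, since the reads carry no molecular identifiers and need not be separate molecules.

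Lta encodes lymphotoxin alpha, the partner of lymphotoxin beta. It had 5, 2 and 3 reads after IL-33 and 0, 3 and 0 reads in PBS. As normalized counts these were 4.50, 3.08 and 5.08 against 0, 2.18 and 0, without overlap. In reads the groups did overlap, so the separation depends on the scaling. A single read was worth 1.54 normalized counts in IL-33 replicate 2 and 0.728 in PBS replicate 2. The 10 against 3 reads gave a scaled ratio of 5.80 (95% exact interval 1.49 to 32.8). The exact two-sided permutation p was 0.1, the smallest possible. With no filter on low values, Lta was called (log2 fold change 1.81, SE 0.54, adjusted p = 0.0463, limma), a fitted value that depends on the pseudocount. Per kilobase of exon, Lta reached 3.05 ± 0.747 normalized counts after IL-33 (SD, n = 3), beside 914 ± 275 for Ltb.

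Tnfsf9 encodes the ligand of the costimulatory receptor 4-1BB. It had 5, 2 and 5 reads after IL-33 and 7, 10 and 8 in PBS. The groups overlapped in normalized counts, with a ratio of 0.835 (95% exact interval 0.382 to 1.72). Of its exon bases, 14.9% are shared with the antisense gene Gm11110, and without a stated strand setting for the counting the reads there cannot be told apart.

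Tnfsf13 (APRIL) and Tnfsf13b (BAFF) encode survival factors of B cells and plasma cells. Tnfsf13 had 1, 0 and 1 reads after IL-33 and 1, 3 and 3 in PBS, with a ratio of 0.497 (95% exact interval 0.0504 to 2.61). Of its exon bases, 60.0% are shared with Tnfsfm13, which joins it to Tnfsf12, or with the antisense gene Tnfsf13os, so even these reads are uncertain. Tnfsf13b had 2, 1 and 0 reads after IL-33 and 1, 0 and 2 in PBS, too few for a ratio.

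Tnfsf15 encodes TL1A, the ligand of DR3, and Fasl the death ligand of cytotoxic lymphocytes. Tnfsf15 had 1 read, in IL-33 replicate 3. Fasl had 1 read in IL-33 replicate 2 and 1 in PBS replicate 2. For Tnfsf9, Tnfsf13, Tnfsf13b, Tnfsf15 and Fasl no difference was detectable at this depth.

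**Figure D3:**
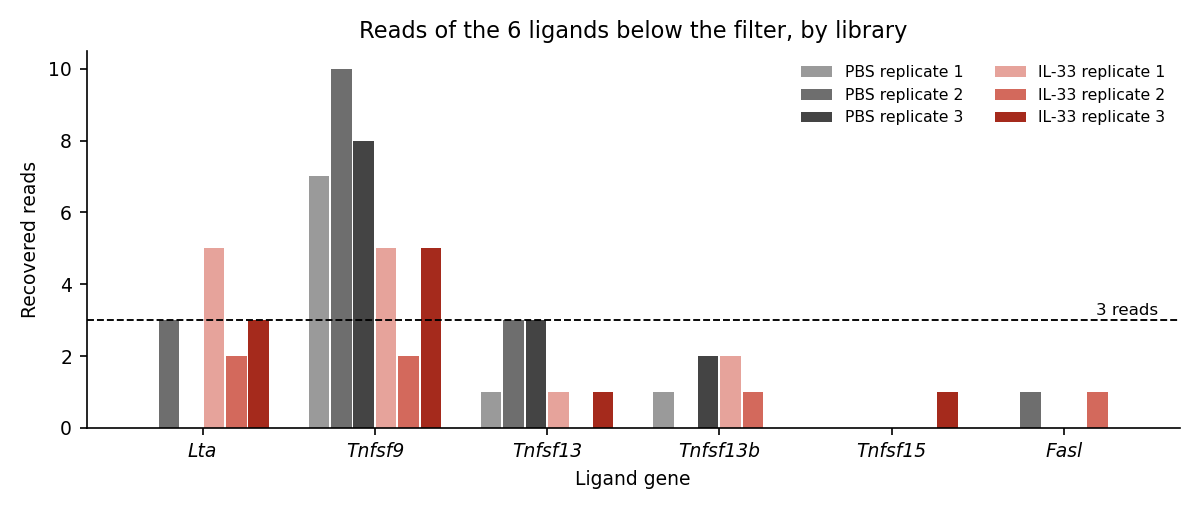
Recovered reads (y axis) in each library of the 6 ligands below the filter (x axis). Tnfsf9 is the highest, with 10 reads in PBS replicate 2, Lta reaches 5 reads in IL-33 replicate 1, and the other 4 have at most 3 reads in any library.

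Well detected and barely detected ligand genes lay side by side on chromosome 17. Tnf spans 35199381 to 35202007 on the minus strand (GENCODE vM21, GRCm38), with Ltb 3.06 kb away at 35194439 to 35196320 on the plus strand. Lta lies on the other side of Tnf, 1.16 kb away at 35203165 to 35205351 on the minus strand, and never exceeded 5.08 normalized counts. Of the genes beyond these 3, Lst1, beside Ltb, had means of 185 ± 116 after IL-33 and 332 ± 64.9 in PBS (SD, n = 3), and the groups overlapped (log2 fold change −1.001, adjusted p = 0.0887, limma). Nfkbil1, beside Lta, had a log2 fold change of 0.50 (adjusted p = 0.301, limma), also with overlap. Atp6v1g2 was at −1.46 (adjusted p = 0.0596, limma) and Aif1 was below the filter, so limma called Tnf and Ltb and none of the 3 tested neighbours. Nfkbil1 and Atp6v1g2 overlap each other in the annotation. Without IL-33 replicate 1, Lst1 was called lower (−1.48) and Nfkbil1 higher (0.90), beside 2950 of 10386 genes called lower and 2910 higher. Without IL-33 replicate 3, Atp6v1g2 passed the filter only through its PBS libraries and was called lower (−1.92). It was also called lower by edgeR on recovered reads (−1.61) and by limma without the mean-variance trend (adjusted p = 0.0435). With equal totals, limma called Lst1 (−2.04, adjusted p = 0.0223) and Atp6v1g2 (−2.39, adjusted p = 0.0101) lower and Ltb higher, and did not call Tnf. With equal totals without Rn45s, limma called Lst1 (−1.42, adjusted p = 0.0308) and Atp6v1g2 (−1.86, adjusted p = 0.0211) lower, and Ltb and Tnf higher. These 2 scalings called 5470 of 10873 and 3603 of 10747 genes lower, with the median gene at −1.08 and −0.46.

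**Figure D4:**
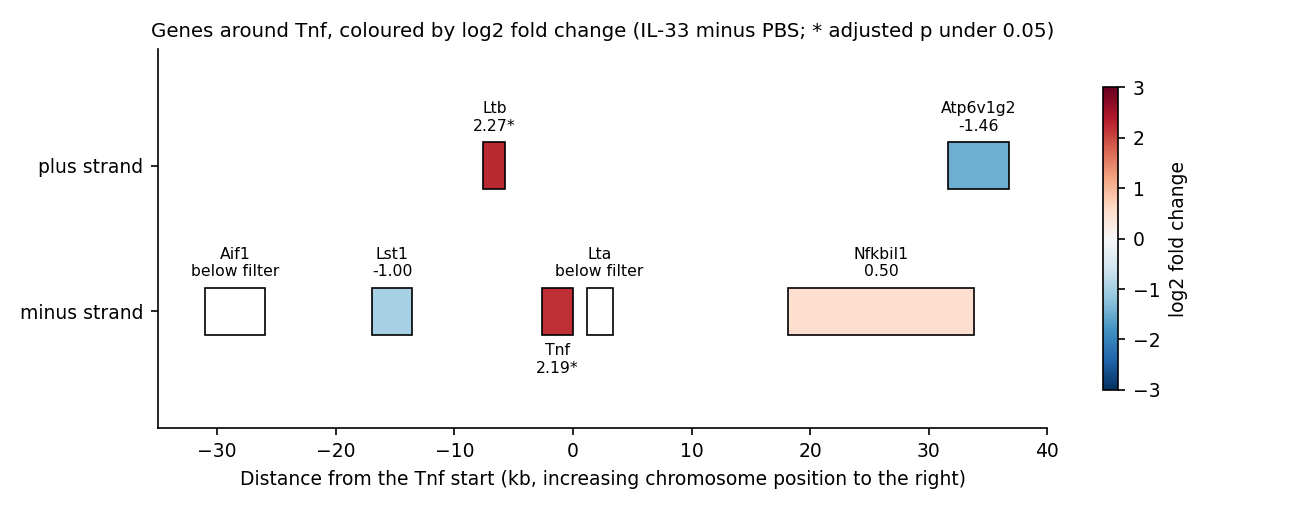
Genes around Tnf drawn to scale by strand, with distance from the Tnf start in kb on the x axis and colour for the log2 fold change (IL-33 minus PBS). Ltb (2.27) and Tnf (2.19) are called, while Lta, next to Tnf, is below the filter.

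Tnfsf9 (57105325 to 57107757, plus strand) and Tnfsf14 (57189492 to 57194177, minus strand) lie 81.7 kb apart on the same chromosome, with Cd70, the gene of the CD27 ligand, between them. Cd70 had no read in any library. C3, the gene of complement component C3, is 9.79 kb from Tnfsf14 on the other side. It had 434, 268 and 505 normalized counts after IL-33 and 200.4, 135 and 169 in PBS, without overlap, and rose by 1.22 on the log2 scale (SE 0.27, adjusted p = 0.0134, limma). Beside the ligands below the filter other than Lta, 9 neighbours were tested, 2 were higher and 7 were not called (−0.69 to 0.34). The gene at −0.69 passed the filter only through its PBS libraries. The called genes were Suco beside Fasl (1.52, adjusted p = 0.00101, limma) and Senp3 beside Tnfsf13 (0.77, adjusted p = 0.0159, limma). Over all 9 ligands, 3 of 14 tested neighbours were higher and none was lower, beside 17.4% and 14.4% of all genes tested. The call of C3 was lost without PBS replicate 2 (1.07) or 3 (1.24), that of Senp3 without any library but IL-33 replicates 1 and 3 (0.75 to 0.79), and with equal totals none of C3, Suco and Senp3 was called. Over all genes, 695 to 1108 were called higher without those libraries and 257 with equal totals, beside 1837 in the main fit.

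Of 10 genes for receptors of these ligands, 7 were tested, 2 were higher, none was lower and 5 were not called, with a median log2 fold change of 0.46. The 2 of 7 stand beside 17.4% of all genes tested called higher and 31.9% called in either direction. Tnfrsf9 encodes 4-1BB, the receptor of the Tnfsf9 product. It had 96.2, 96.9 and 69.5 normalized counts after IL-33 and 3.88, 2.91 and 3.49 in PBS, without overlap, and rose by 4.31 on the log2 scale (SE 0.31, adjusted p = 1.18e-04, limma). It passed the filter through its 3 IL-33 libraries, and without any one of them it was not tested. Tnfrsf1b encodes TNF receptor 2 and had 2854, 1995 and 1917 normalized counts after IL-33 and 612, 493 and 444 in PBS, without overlap. It rose by 2.11 on the log2 scale (SE 0.21, adjusted p = 5.32e-04, limma), and with equal totals was not called (1.07, adjusted p = 0.0506, limma).

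The 5 receptors not called had log2 fold changes of 0.00 to 0.82. The next 3 are named after their values were seen. Tnfrsf1a, which encodes the death domain receptor of TNF, had 164, 151 and 127 normalized counts after IL-33 and 165, 156 and 120.2 in PBS, overlapping, with a log2 fold change of 0.00 (limma, SE 0.21, adjusted p = 0.991). With equal totals it was called lower (−1.03, adjusted p = 0.0459, limma), as were 5470 of 10873 genes, and the median gene was at −1.08. Ltbr, the receptor shared by lymphotoxin beta and LIGHT, had 56.6, 53.8 and 54.2 after IL-33 and 47.4, 43.7 and 41.9 in PBS (0.30, SE 0.22, adjusted p = 0.298, limma), without overlap, as in 50.2% of genes tested in either direction. Fas had 513, 154 and 86.4 after IL-33 and 103, 91.7 and 130.0 in PBS, with IL-33 replicate 1 far above the rest (0.82, SE 0.56, adjusted p = 0.278, limma). With the Rn45s share as a covariate, Fas was called higher (2.35, adjusted p = 0.00693, limma), in a fit that rests mainly on IL-33 replicate 1. Without IL-33 replicate 1, Fas was at 0.11 (adjusted p = 0.741, limma).

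The receptors below the filter were Tnfrsf13c, the BAFF receptor gene, with 2 reads after IL-33 and 13 in PBS, Tnfrsf17, with no read, and Tnfrsf25. Tnfrsf25, which encodes DR3, had 12, 3 and 4 reads after IL-33 and 2 in each PBS library, a scaled ratio of 5.51 (95% exact interval 2.12 to 16.9, counting error only), and 12 of the 19 IL-33 reads came from replicate 1. Another 9 ligand genes of the superfamily, such as Tnfsf10 (TRAIL), Tnfsf12 (TWEAK) and Cd40lg, were all below the filter, with at most 8 reads in any library, and Tnfsf8, Tnfsf11 and Cd70 had none.

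Of 8 genes that process these ligands, 6 were tested, 3 were higher and none was lower, beside 17.4% and 14.4% of all genes tested, with a median log2 fold change of 0.49. Adam17 encodes the protease that sheds TNF. It had 3837, 2753 and 2003 normalized counts after IL-33 and 959, 693 and 689.8 in PBS, without overlap and highest in the same library as Tnf, and rose by 1.84 on the log2 scale (SE 0.26, adjusted p = 0.0022, limma). With equal totals it was not called (0.80, adjusted p = 0.146, limma). Rhbdf2 encodes iRhom2, which brings ADAM17 to the surface, and rose by 1.01 (SE 0.15, adjusted p = 0.00314, limma), but stood at −0.027 with equal totals. Furin encodes a convertase that cuts APRIL and BAFF. It had 8551, 10678 and 12103 normalized counts after IL-33 and 2863, 2653 and 2674 in PBS, and rose by 1.92 (SE 0.17, adjusted p = 3.23e-04, limma). The 3 not called had log2 fold changes of −0.61 to −0.04. Of these, Sppl2b, which encodes an intramembrane protease, was called lower by limma with equal totals (−1.64), with equal totals without Rn45s (−1.03, adjusted p = 0.018) and with the Rn45s share as a covariate (−1.12, adjusted p = 0.0423). These settings called 5470 of 10873, 3603 of 10747 and 642 of 10544 genes lower, and the covariate fit rests mainly on IL-33 replicate 1. Adam10, another protease gene, was called lower with equal totals (−1.19, adjusted p = 0.0372, limma), where the median gene was at −1.08.

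All 10 genes for proteins that control Tnf mRNA were tested: 5 were higher, 1 was lower and 4 were not called, beside 17.4% of all genes tested called higher and 14.4% lower, with a median log2 fold change of 0.69. Zc3h12a encodes Regnase-1, an RNase that degrades inflammatory mRNAs, and had 1877, 1999 and 2447 normalized counts after IL-33 and 163, 143 and 147 in PBS. It rose by 3.79 on the log2 scale (SE 0.17, adjusted p = 1.96e-05, limma). Mapkapk2 encodes MK2, a kinase that acts on AU-rich element binding proteins, and rose by 2.98 (SE 0.25, adjusted p = 2.46e-04, limma). Zfp36 encodes tristetraprolin, which binds the AU-rich element and speeds decay, and had 3145, 2599 and 2285 after IL-33 and 1923, 1327 and 1404 in PBS (0.79, SE 0.20, adjusted p = 0.0211, limma). With equal totals Zfp36 stood at −0.25. Its relative Zfp36l1 (1.04, adjusted p = 0.0276) and Rc3h2, which encodes Roquin-2 (0.77, adjusted p = 0.0168), were higher by limma, and Rc3h2 stood at −0.27 with equal totals. Tia1, which encodes a protein that represses Tnf translation, had 29.7, 18.5 and 30.5 after IL-33 and 71.4, 65.5 and 72.0 in PBS, and fell by 1.41 on the log2 scale (SE 0.27, adjusted p = 0.00807, limma). The 4 not called had log2 fold changes of −0.29 to 0.61. Zfp36, Zfp36l1 and Rc3h2 each lost their call without IL-33 replicate 2 (0.81, 1.06 and 0.81, adjusted p = 0.0704, 0.0796 and 0.0531, limma), PBS replicate 2 (0.69, 0.91 and 0.71) or PBS replicate 3 (0.73, 1.101 and 0.74), and Zfp36l1 also without PBS replicate 1 (1.12). Over all genes, 695 to 1108 were called higher without these libraries, beside 1837 with all. The 3 genes lost their call with equal totals, where Zfp36l1 was at 0.016 (adjusted p = 0.98, limma), and with equal totals without Rn45s (0.37, 0.62 and 0.34). Zfp36 and Rc3h2 lost it after quantile normalization (0.32 and 0.48), and Rc3h2 with the Rn45s share as a covariate (0.58, adjusted p = 0.128, limma). Tia1 lost it without PBS replicate 3 (−1.38, adjusted p = 0.0519, limma) and with the Rn45s share as a covariate (−1.13, adjusted p = 0.075, limma). There 318 and 642 of all genes were called lower, beside 1522 in the main fit. Among those not called, limma called Zfp36l2 and Khsrp higher, and Rc3h1 and Elavl1 lower, without IL-33 replicate 1 (0.61, 0.93, −0.43 and −0.59). In that setting 2910 of 10386 genes were called higher and 2950 lower.

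**Figure D5:**
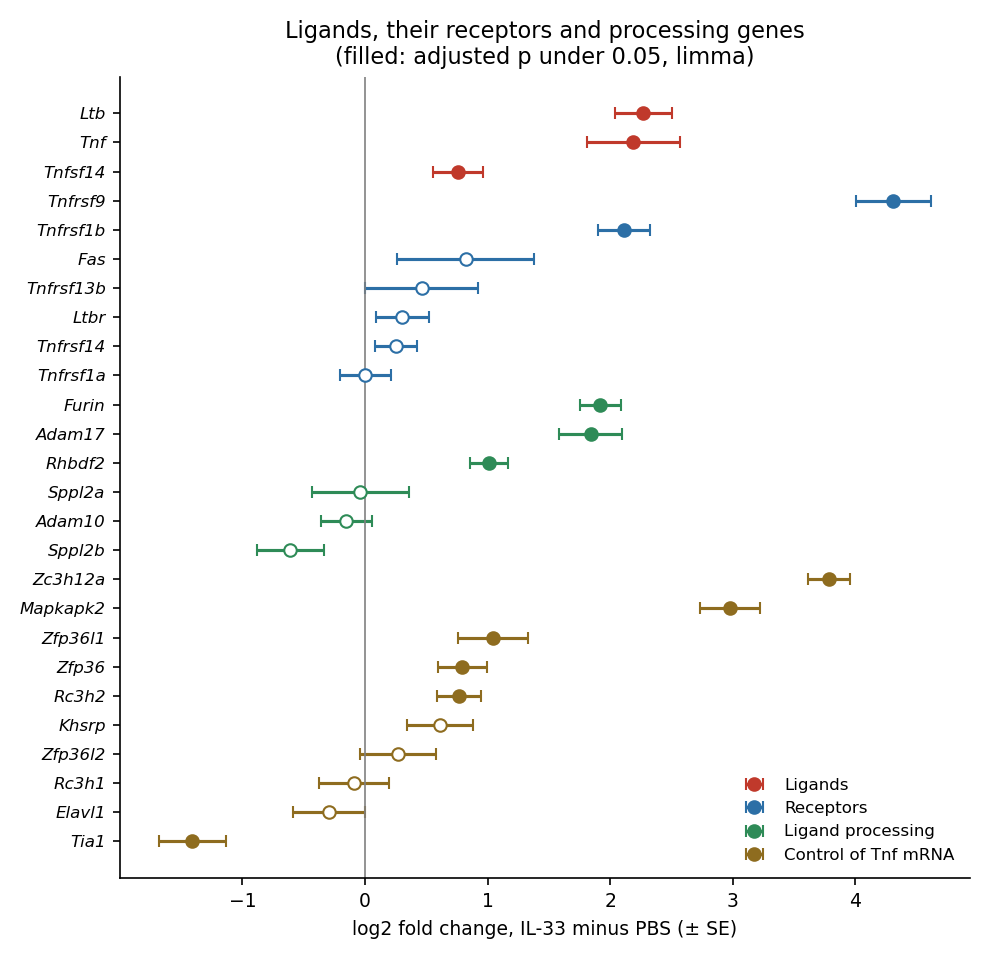
Log2 fold change (x axis, IL-33 minus PBS) with its SE of each tested ligand, receptor, processing gene and regulator of Tnf mRNA (y axis), with filled points for an adjusted p under 0.05 by limma. Tnfrsf9 (4.31) and Zc3h12a (3.79) are the highest, and Tia1 (−1.41) is the lowest. Tnfrsf9 passed the filter only through its IL-33 libraries.

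The genes whose values followed each ligand most closely over the 6 libraries differed between the ligands. By Pearson r of log2(normalized count + 1), these were Foxp1 (0.998), Sema4d (0.998) and Cdk7 (0.997) for Tnf. They included Map3k5 (0.998) and Clp1 (0.997) for Ltb, and were Usp12 (0.999), Lpin2 (0.999) and Tapt1 (0.998) for Tnfsf14. These correlations include the difference between the groups and are a description only.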

How the data were processed

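RNA of 6 libraries (3 IL-33, 3 PBS) was depleted of ribosomal RNA and sequenced from directional libraries, per the labels' protocols. The authors deposited a table of normalized gene counts, a signal. HISAT2, HTSeq, DESeq2 and build mm10 were used, per the submitters' processing notes; no source used here gives versions, annotation or strand setting. Reads were recovered, as 100% of values were whole multiples of 1 read (within 0.1 read).

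Genes with a normalized count of at least 10 in at least 3 libraries were tested with limma 3.58.1 (R 4.3.3; lmFit, eBayes with trend, two-sided) on log2(value + 1), with Benjamini-Hochberg adjustment over all genes tested and calls at 0.05. The script was tested on simulated data. Ligands below the filter got an exact permutation test and exact 95% intervals on reads. No pair of libraries of a group was close enough to be 1 library deposited again; this does not show that they are biological replicates.

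On recovered reads, the quasi-likelihood test of edgeR 4.0.16 called 1909 genes higher and 1479 lower, and DESeq2 1.42.0 called 2238 and 1624, beside 1837 and 1522 by limma. Other alternatives were pseudocounts, filters, scalings, no trend, a replicate block, the Rn45s share as a covariate and leaving out each library. Members, gene lists and tests were chosen with earlier results of these data known. All ligands are named, with the called members of each list; of the 2 nearest genes on each side, those around Tnf and those called are named and the rest counted; for ligands tested, the 3 genes with the highest Pearson r are named, except 1 that is not reported here. Of the 23420 symbols, 21737 matched 1 gene of GENCODE vM21 (GRCm38), which gave coordinates and lengths.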

Additional observations from a re-analysis of the deposited data

How the results depend on the processing

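Scaling and single libraries moved the results most. Of the 3 ligands called higher, 1 was called with equal totals, where Rn45s counts, 2 with equal totals without Rn45s or with quantile normalization, and 2 to 3 without 1 library; none was called lower in any alternative. Equal totals also left 1 receptor higher and made 1 lower, and turned Tnfsf14 to −0.28, Tnfrsf1a to −1.03, Rhbdf2 to −0.027, Zfp36 to −0.25, Zfp36l2 to −0.77 and Rc3h2 and Senp3 each to −0.27 on the log2 scale. That scaling called 257 of 10873 genes higher and 5470 lower. It put the median gene at −1.08, and each gene named as turned was above that median. Without 1 library, 1 to 2 receptors were higher; the lower number came without each IL-33 library, where Tnfrsf9 was below the filter. The share of genes called, 31.9%, was 18.4% with no filter, 52.7% with equal totals, 14.8% with the Rn45s covariate and 9.82% to 56.4% without 1 library. Calls kept or lost with the Rn45s covariate rest mainly on IL-33 replicate 1, the only IL-33 library with a share in the PBS range. By medians in place of means, Tnfsf14 exceeded Tnf 5.15-fold per kilobase after IL-33, in place of 3.83-fold. IL-33 replicate 1 alone against PBS, chosen after seeing the data, turned Sppl2a to 0.89, Zfp36l2 to −0.41 and Rc3h1 to 0.59; these values come from 1 IL-33 library, with the spread of the PBS libraries alone, and support no call. The within-library ratios and the nonamer counts were also added after seeing the data. Pairing was not shown by the data (r of same-numbered deviations 0.05, 0.24 and −0.16); with the replicate block, 3 ligands and 2 receptors were higher, 27.7% of genes were called, and all 26 listed genes tested kept their call. Pseudocounts, no trend, TMM, edgeR and DESeq2 changed no call among the 26. Apart from Tnfrsf9, whose test needs its 3 IL-33 libraries, the cause of these shifts was not tested. Depth limits the 6 ligands below the filter.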
